A study of Canis lupus familiaris and Dasypus novemcinctus and Ornithorhynchus anatinus with 3 samples.

Results

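The vascular endothelial growth factor (VEGF) ligands VEGFA, VEGFB, VEGFC and PGF, the receptors FLT1, KDR and FLT4 and the neuropilins NRP1 and NRP2 were followed by gene symbol in messenger RNA libraries of pregnant endometrium, the lining of the uterus. The 9 genes were chosen by name as an angiogenic family of the pregnant uterus. The dog table gave a value for 6 of them by symbol, among 19290 listed genes, and for VEGFA under its UniProt entry name, VEGFA_CANFA. The armadillo table gave a value for 6 among 12335 listed genes, and the platypus table for all 9 among 18481. VEGFC, PGF, NRP1 and NRP2 were matched in all 3 tables, and 6386 genes in all were matched in this way. FLT1 and KDR were not analysed in dog, nor VEGFA, VEGFB and FLT4 in armadillo. The armadillo table lists no gene below 1 read, so a gene that it does not list was not taken as 0.

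Dog (Canis lupus familiaris) and armadillo (Dasypus novemcinctus) are placental mammals, and platypus (Ornithorhynchus anatinus) lays eggs. All 3 groups are tissue labelled as pregnant endometrium, with 1 library per species. The labels state no treatment, strain, age, stage of pregnancy or number of animals. Every value is therefore a single measurement, no p-value was computed, and the 95% intervals cover counting error only.

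VEGF ligands are secreted proteins that make endothelial cells divide, migrate and become permeable. VEGFA, VEGFB and PGF bind FLT1, VEGFA also binds KDR, which carries most of the growth signal in blood vessels, and VEGFC binds FLT4, the receptor best known from lymphatic vessels. Neuropilins are co-receptors that bind both VEGF ligands and class 3 semaphorins. In the pregnant uterus the family is known for the growth and permeability of endometrial and placental vessels.

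Levels are given as CPM, the reads of a gene scaled to a library total of 1000000 reads over all listed genes. The total was 13625465 reads for dog, 13218476 for armadillo and 2243556 for platypus, so 1 read was worth 0.0734, 0.0757 and 0.446 CPM. A count of 0 allows up to 3 reads, which is 1.34 CPM in platypus. Of the platypus genes 42.4% were listed at 0, including 7 of 51 ribosomal protein genes, which every cell uses. In dog 21.8% of genes were listed at 0, including 6 of 42 ribosomal protein genes. A gene at 0 in either library is therefore described as listed at 0. Its folds, calls and percentiles hold only if the gene could be counted there. A gene was called different between a pair of libraries when it differed by 4-fold or more on the log2(CPM + 1) scale and had at least 5 CPM in the higher of them. Folds of single genes are ratios of CPM with exact intervals conditional on both counts. In bulk tissue, fewer cells of a type and less RNA per cell cannot be told apart.

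Markers of several cell types also differed between the libraries, in an order that varied with the cell type. Of 16 endothelial markers 12 (dog), 9 (armadillo) and 9 (platypus) were listed by symbol, and the summed levels of those were 428, 11147 and 39.7 CPM. The dog sum leaves out VWF (77.0 CPM) and CD34 (31.9 CPM), listed there under UniProt entry names, and the armadillo sum includes both. In platypus 5 of its 9 stood at 0, among them VWF (von Willebrand factor), PLVAP (the diaphragm protein of fenestrated endothelium) and CD34. CDH5, the cadherin of endothelial junctions, had 45 reads (20.1 CPM) there. CLDN5 had 38 reads (16.9 CPM) in platypus against 4 in dog. It was the 1 of 7 matched endothelial markers called higher in platypus than in dog (9.91% of all matched genes), and 4 of 7 were called higher in dog (32.0%). Summed epithelial markers (3, 4 and 4 of 7 listed, with no marker at 0) were 2558 CPM for dog, 833 for armadillo and 8.91 for platypus, and stromal markers (2, 6 and 5 of 6, also with no marker at 0) were 626, 16381 and 8219. Summed pericyte markers (4, 3 and 5 of 6) were 88.7, 180 and 88.3 CPM. Trophoblast markers (6, 5 and 7 of 7, with 4 of them at 0 in platypus) summed to 20.9, 59.6 and 12.9 CPM. Macrophage markers were listed for 2, 3 and 1 of 5 genes and summed to 10.4, 277 and 0.446 CPM. The lists that were present differ between tables, so these sums are not over the same genes, and their part in the values below was not tested.

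Each ligand was higher in the dog library than in every other library that listed it; VEGFA and VEGFB could be set against platypus alone. VEGFC (ENSCAFG00000008409 in dog) stood at 55.6 CPM in dog (95% interval 51.7 to 59.7, 758 reads), 13.8 in armadillo (11.8 to 15.9, 182 reads) and 9.81 in platypus (6.15 to 14.8, 22 reads). Dog was above both other libraries, whose intervals overlapped. The ratio was 4.04 (95% interval 3.43 to 4.78) over armadillo and 5.67 (3.72 to 9.11) over platypus, and 1.40 (0.900 to 2.30) between armadillo and platypus. On the log2(CPM + 1) scale the first of these was 1.94, just under the limit of 4-fold, so VEGFC was not called between dog and armadillo. It was called there at 2.04 when totals were taken over the genes matched in all 3 tables, and the call of dog over platypus, at 2.39, was lost at 1.83 with median-of-ratios scaling.

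PGF, placental growth factor (ENSCAFG00000016995), stood at 21.0 CPM in dog (95% interval 18.6 to 23.6, 286 reads), 4.01 in armadillo (3.0 to 5.24, 53 reads) and 0.446 in platypus (0.0113 to 2.48, 1 read). The 3 intervals did not overlap. PGF was 5.24-fold (3.89 to 7.16) higher in dog than in armadillo. Its log2 fold of 2.13 on the CPM + 1 scale passed the limit, but not with median-of-ratios (1.83) or upper-quartile (1.79) scaling. The ratio to platypus was 47.1 (8.38 to 1867) for dog and 9.0 (1.55 to 362) for armadillo, and both rest on a single platypus read. Armadillo over platypus, at a log2 fold of 1.79 and under 5 CPM in both, was not called. It was called at 2.23 with totals over the genes matched in all 3 tables. That setting multiplied CPM by 2.06 in armadillo and 2.17 in platypus, with the pseudocount and the 5 CPM limit unchanged.

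VEGFB, a ligand of FLT1 (ENSCAFG00000014577), had 751 reads in dog, or 55.1 CPM (95% interval 51.2 to 59.2), and was listed at 0 in platypus. With its 0 set to the limit of 3 reads it was 41.2-fold higher in dog. Among the 2331 matched genes between 30 and 100 CPM in dog, 20.3% were listed at 0 in platypus, so a 0 there was not rare at this level. VEGFA, the main ligand of KDR, was read in dog from the entry VEGFA_CANFA (ENSCAFG00000001938), with 497 reads or 36.5 CPM (33.3 to 39.8), against 12 reads or 5.35 CPM (2.76 to 9.34) in platypus. The ratio was 6.82 (3.87 to 13.3), with dog higher.

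**Figure D1:**
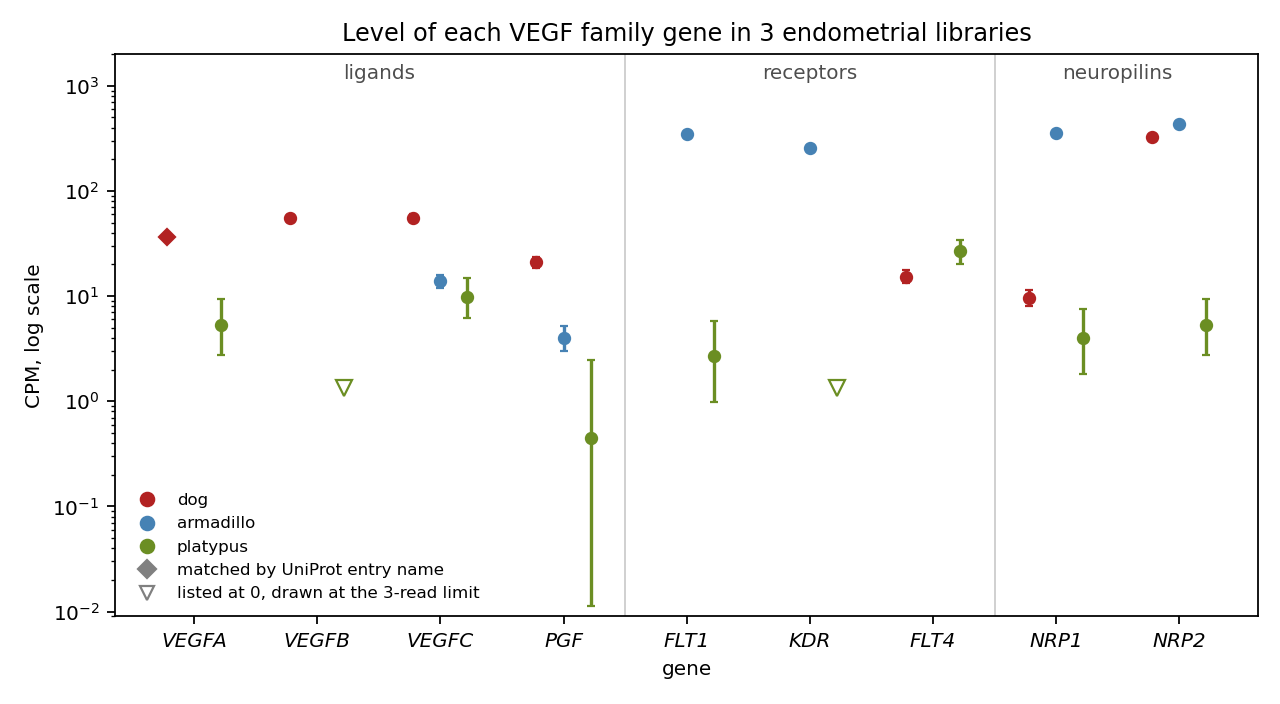
Level in CPM (log axis) of the 9 VEGF family genes in the dog, armadillo and platypus libraries, 1 library per species, with 95% Poisson intervals for counting error as bars. Dog lies above each other point for the ligands VEGFA, VEGFB, VEGFC and PGF, armadillo holds FLT1, KDR, NRP1 and NRP2 between 257 and 435 CPM, and FLT4 lies higher in platypus than in dog; open triangles mark VEGFB and KDR, listed at 0, at the 3-read limit of 1.34 CPM, and genes not analysed in a library have no point.

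By reads uncorrected for gene length, the blood vessel receptors were among the more abundant genes of the armadillo library. FLT1, the receptor that binds VEGFA, VEGFB and PGF (ENSDNOG00000017394), had 4634 reads or 351 CPM in armadillo (95% interval 341 to 361) against 6 reads or 2.67 CPM in platypus (0.981 to 5.82). KDR (ENSDNOG00000015773) had 3397 reads or 257 CPM in armadillo (248 to 266) and was listed at 0 in platypus. In armadillo FLT1 lay at percentile 96.5 and KDR at percentile 95.1 of genes with a read, whereas platypus FLT1 lay at percentile 24.2 of its own library. FLT1 was 131-fold higher in armadillo (60.2 to 357), and KDR 192-fold higher with its 0 set to the limit of 3 reads. Of the 869 matched genes between 100 and 300 CPM in armadillo, 15.7% were listed at 0 in platypus.

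FLT4, the VEGFC receptor, was compared between dog and platypus only, a pair in which neither FLT1 nor KDR could be compared. It had 209 reads or 15.3 CPM in dog (95% interval 13.3 to 17.6; ENSCAFG00000000482) and 60 reads or 26.7 CPM in platypus (20.4 to 34.4; ENSOANG00000001739). It was the only member above its dog level in platypus among the 7 compared, by 1.74-fold (1.29 to 2.33), under the limit of 4-fold. FLT4 had the most reads of the 9 genes in the platypus library, uncorrected for gene length, and it lay there at percentile 64.8 of genes with a read, against percentile 46.9 in dog. Lymphatic markers differed among themselves. PROX1, the transcription factor of lymphatic endothelium, had 4 reads in platypus and was listed at 0 in dog, and LYVE1, a hyaluronan receptor of lymphatic vessels, had 12 reads in dog and was not analysed in platypus. PDPN, a membrane protein of lymphatic endothelium and of several epithelia and stromal cells, had 1596 reads or 117 CPM in dog under its UniProt entry name and was not analysed in platypus. CCL21, a chemokine of lymphatic vessels, was analysed in armadillo alone, with 55 reads. In armadillo LYVE1 stood at 151 CPM.

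Of the neuropilins, NRP1 was called different between dog and armadillo and NRP2 was not. NRP1 (ENSDNOG00000019855 in armadillo), the co-receptor of KDR, had 132 reads or 9.69 CPM in dog (95% interval 8.11 to 11.5), 4661 reads or 353 CPM in armadillo (343 to 363) and 9 reads or 4.01 CPM in platypus (1.83 to 7.62). Armadillo stood apart from the other two, 36.4-fold (30.6 to 43.6) above dog and 87.9-fold (46.3 to 192) above platypus. Dog and platypus differed by 2.42-fold (1.23 to 5.40).

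NRP2 (ENSDNOG00000014624), the co-receptor of FLT4, had 4488 reads or 329 CPM in dog (320 to 339), 5754 reads or 435 CPM in armadillo (424 to 447) and 12 reads or 5.35 CPM in platypus (2.76 to 9.34). Here dog and armadillo lay close together, with armadillo 1.32-fold higher (1.27 to 1.37), and platypus was lower by 61.6-fold (35.2 to 119) against dog and by 81.4-fold (46.6 to 158) against armadillo. Uncorrected for gene length, NRP2 lay at percentile 96.6 of genes with a read in dog, at percentile 97.3 in armadillo and at percentile 34.9 in platypus. On the dog per-length scale given below it lay at percentile 90.3 of dog genes above 0.

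Within a library the ratio of the neuropilins does not depend on the scaling between libraries. Dog had 34.0 NRP2 reads for each NRP1 read (95% interval 28.6 to 40.7), armadillo 1.23 (1.19 to 1.28) and platypus 1.33 (0.516 to 3.58). The ratio in dog was 27.5 times that in armadillo (23.1 to 33.1) and 25.5 times that in platypus (9.29 to 67.1). Armadillo and platypus did not differ beyond counting error, with a ratio of ratios of 0.926 (0.344 to 2.40), an interval that still allows a difference in either direction. These ratios carry any difference between species in the lengths of the gene models, which were not available for armadillo and platypus.

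The 4 genes matched in all 3 tables held 5664 dog reads, 10650 armadillo reads and 44 platypus reads. NRP2 took 79.2% of them in dog (exact 95% interval 78.2 to 80.3) and NRP1 2.33% (1.95 to 2.76), while in armadillo they took 54.0% (53.1 to 55.0) and 43.8% (42.8 to 44.7). VEGFC took 13.4% in dog (12.5 to 14.3), 1.71% in armadillo (1.47 to 1.97) and 50% in platypus (34.6 to 65.4). The VEGFC share was lowest in armadillo and highest in platypus, and the 3 intervals did not overlap. These are shares of reads and not of molecules, since longer genes give more reads.

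**Figure D2:**
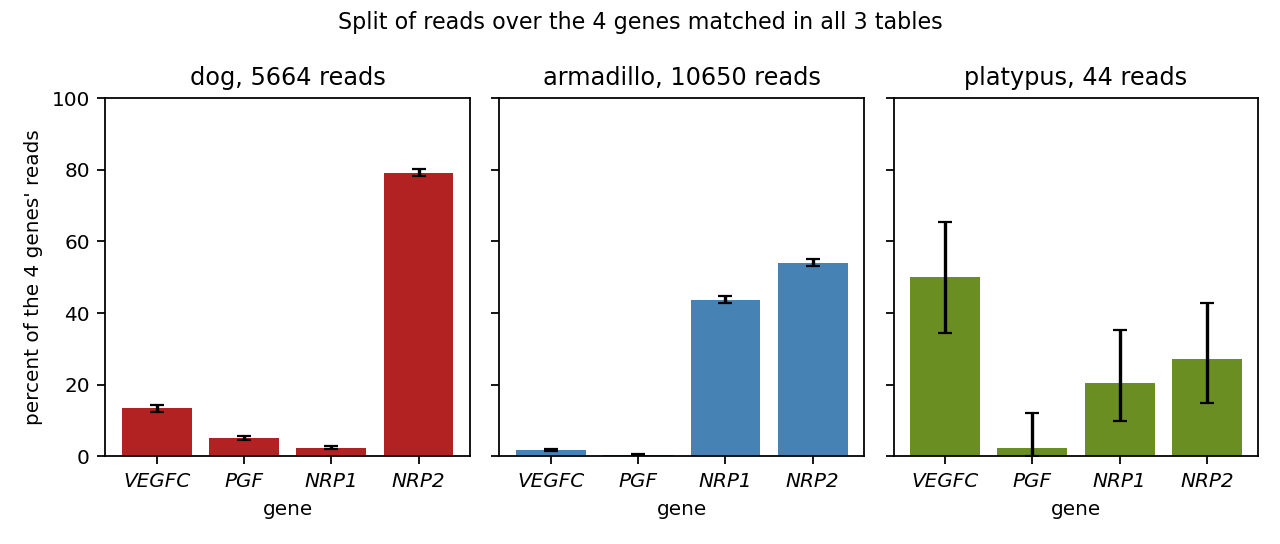
Percent of the reads of VEGFC, PGF, NRP1 and NRP2 that each gene took in the dog, armadillo and platypus libraries (bars, 1 library per species), with exact 95% binomial intervals. NRP2 holds 79.2% in dog, NRP1 and NRP2 share most reads in armadillo at 43.8% and 54.0%, and VEGFC holds 50% of only 44 reads in platypus.

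For dog the levels of different genes were set side by side on the authors' deposited relative abundance, which is proportional to reads per gene length. On this per-length scale NRP2 was highest at 64.1 units (95% interval from its reads 62.2 to 66.0), followed by VEGFB at 35.2 (32.7 to 37.8), VEGFA at 30.6 (28.0 to 33.4), VEGFC at 27.3 (25.4 to 29.3) and PGF at 15.6 (13.8 to 17.5). FLT4 at 2.50 (2.17 to 2.86) and NRP1 at 2.08 (1.74 to 2.46) came last. The 4 ligands thus lay within 2.26-fold of each other (1.97 to 2.59, VEGFB over PGF), and NRP2 was 30.9-fold above NRP1 (26.0 to 37.0). Of the neighbours in this order VEGFA and VEGFC (ratio 1.12, 0.999 to 1.26) and FLT4 and NRP1 (ratio 1.20, 0.962 to 1.51) did not differ beyond counting error. The gene lengths behind these values ranged from 735 bases for VEGFA to 3792 for FLT4. Over 5644 dog genes 59.0% of these lengths were multiples of 3, as a coding sequence without untranslated regions is. The lengths of VEGFA, VEGFB, VEGFC and FLT4 were such multiples and those of PGF, NRP1 and NRP2 were not, so the order may mix gene models of different kinds.

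Set against all matched genes, the members stood as follows. Between dog and armadillo 1 of 4 members, PGF, was called higher in dog, where 12.6% of 8908 matched genes were called, and 1 of 4, NRP1, in armadillo, where 13.3% were. Of all the calls in this pair 48.6% were higher in dog, and 37.3% with upper-quartile scaling. Between dog and platypus 4 of 6 members (VEGFB, VEGFC, PGF and NRP2) were called higher in dog, with 32.0% of 9073 matched genes called in that direction, and 0 of 6 were called higher in platypus (9.91%). Between armadillo and platypus 4 of 6 (FLT1, KDR, NRP1 and NRP2) were called higher in armadillo, with 36.1% of 7296 called, and 0 of 6 in platypus (11.0%). A gene enters a comparison with armadillo only if it has 1 armadillo read or more. In these pairs 0 genes stood at 0 in armadillo, against 1903 in platypus and 529 in dog. Genes without armadillo reads drop out. This tilts calls, shares and medians of these pairs towards armadillo, here and in the lists below. The median log2 difference of the members was 0.77 for dog over armadillo, 3.16 for dog over platypus and 6.12 for armadillo over platypus, beside medians over all matched genes of 0.00, 0.61 and 1.06. The 3 comparisons share libraries and are not independent of each other.

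The position of single members in the distribution of all matched genes was also taken. NRP1 lay at percentile 2.03 of the dog over armadillo differences, so few matched genes were further towards armadillo. KDR lay at percentile 99.0 and FLT1 at percentile 96.3 of the armadillo over platypus differences, with NRP1 at percentile 94.6 and NRP2 at percentile 94.5. NRP2 lay at percentile 93.3 for dog over platypus, and FLT4 at percentile 21.6. VEGFC lay at percentile 40.1 for armadillo over platypus, in the middle of the distribution.

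**Figure D3:**
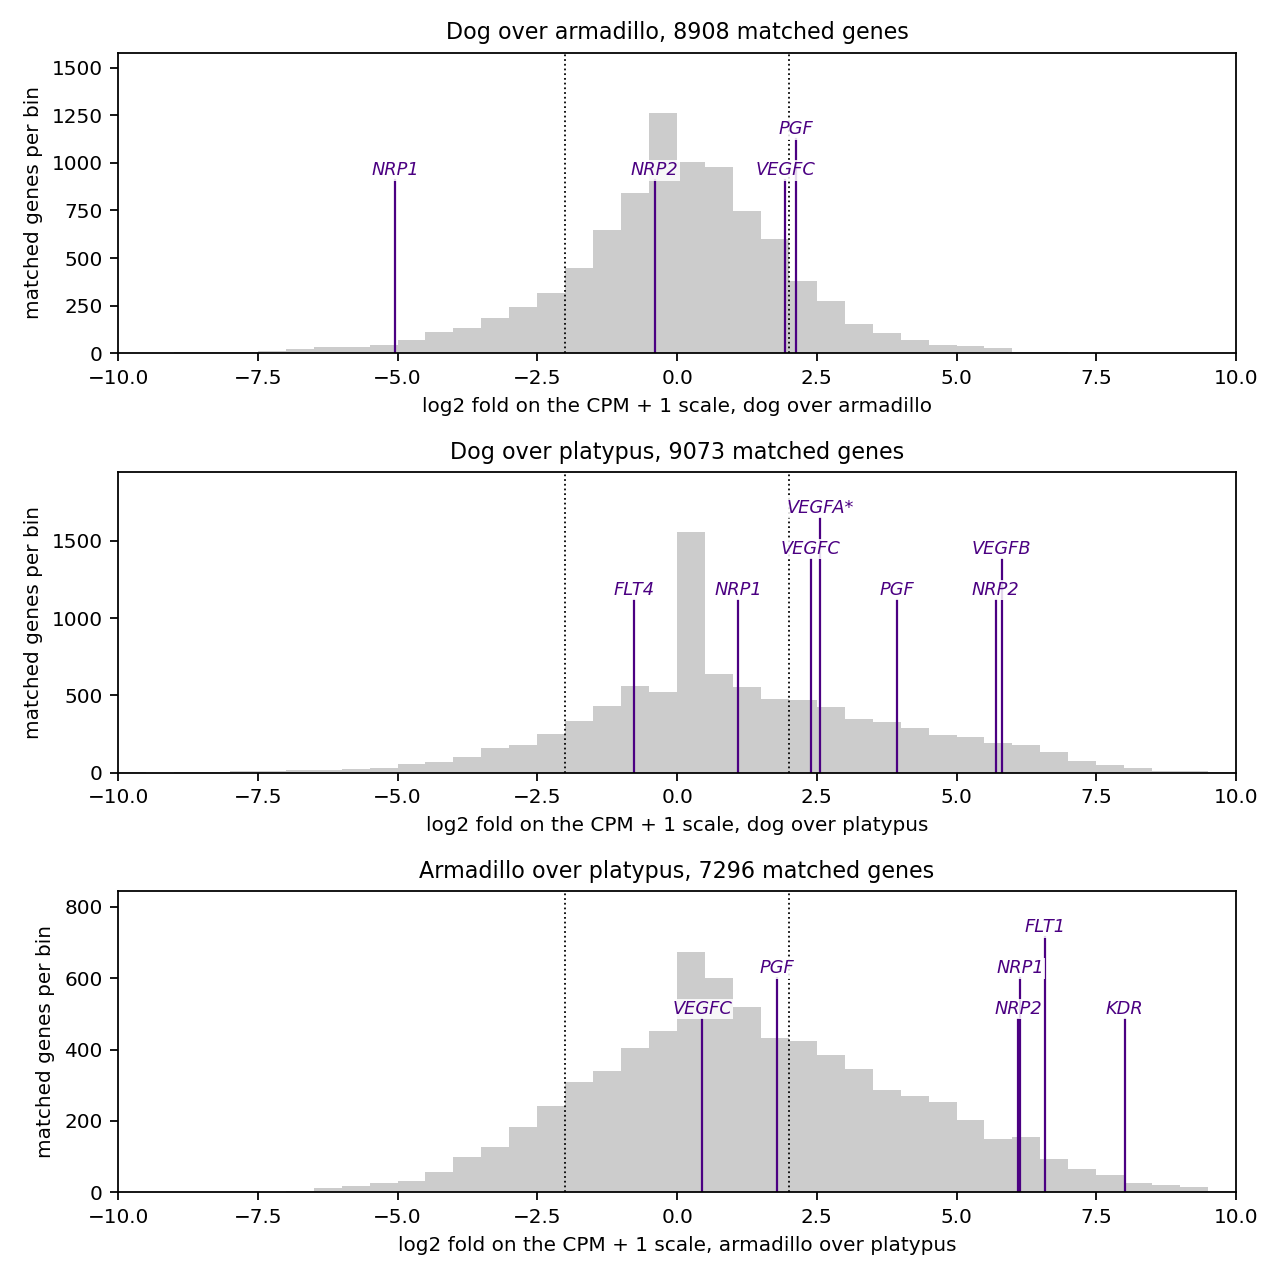
Histograms of log2 folds on the CPM + 1 scale for all genes matched in each pair of libraries (grey, genes per bin of 0.5), with vertical lines at the VEGF family genes and dotted lines at 4-fold. NRP1 lies at -5.05 between dog and armadillo, and FLT1, KDR, NRP1 and NRP2 lie above 6 between armadillo and platypus; the asterisk marks VEGFA, read in dog from its UniProt entry name.

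The receptors were also set against endothelial reads of the same library. The endothelial markers matched in all 3 tables were ESAM, ROBO4, ERG, PLVAP and MMRN2, with 2203 dog reads, 110019 armadillo reads and 6 platypus reads. Per 100 of these reads the dog library had 204 NRP2 reads, the armadillo library 5.23 and the platypus library 200, and the NRP1 reads were 5.99, 4.24 and 150. NRP2 per endothelial read was 39.0 times higher in dog than in armadillo (95% interval 36.8 to 41.3), and 4.25 times higher with ROBO4 and MMRN2 alone (3.94 to 4.59). NRP1 changed direction with the markers used: its ratio of dog to armadillo was 1.41 (1.17 to 1.69) with all 5 and 0.306 (0.253 to 0.367) without PLVAP, which held most armadillo marker reads. With all 5 markers FLT1 per endothelial read was lower in armadillo than in platypus, with a ratio of 0.0421 (0.0113 to 0.158). The ratio was 0.332 (0.0888 to 1.24) without PLVAP and 0.778 (0.208 to 2.91) with ROBO4 and MMRN2 alone. Both of these intervals include 1. FLT4 was lower per endothelial read in dog than in platypus with the 5 markers (ratio 0.00949, 0.00332 to 0.0223) and with CDH5 as the only marker (0.371, 0.238 to 0.576). The ratios to platypus rest on 6 marker reads there, except that with CDH5, which rests on 45. These 6 reads are from ROBO4 and MMRN2, as ESAM, ERG and PLVAP were listed at 0 in platypus.

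Ligand maturation and other partners of the pathway were described from lists. Of 17 such genes 9 were matched between dog and armadillo, with 0 called higher in dog (12.6% of all matched genes) and 2 in armadillo (13.3%). ADAMTS3, the protease that activates VEGFC, was 47.9-fold higher in armadillo than in dog (95% interval 25.0 to 105) and 35.5-fold higher than in platypus (9.76 to 294), with 418 reads in armadillo, 9 in dog and 2 in platypus. CCBE1, its cofactor in VEGFC processing, had 134 reads in armadillo, 36 in dog and 1 in platypus, or 10.1, 2.64 and 0.446 CPM. CCBE1 was 3.84-fold (2.64 to 5.71) higher in armadillo than in dog, under the limit. VEGFC lay the other way, with its highest level in dog. FIGF, the symbol of the fifth ligand VEGFD, was listed at 0 in dog and had 1 read in platypus.

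PTPRB, the endothelial phosphatase that acts on KDR and TEK, was higher in platypus than in dog. It had 1272 reads or 567 CPM in platypus, 12730 reads or 963 CPM in armadillo and 491 reads or 36.0 CPM in dog. The platypus level was 15.7-fold above dog (14.2 to 17.5) and 1.70-fold below armadillo (1.60 to 1.80). ITGB3, an integrin subunit that associates with KDR, was listed at 0 in platypus and stood at 254 CPM in dog and 360 in armadillo. PTPRJ, another receptor phosphatase, had 1 read in platypus, against 103 CPM in dog and 32.5 in armadillo. In this list 3 of 10 matched genes were higher in dog than in platypus (32.0% of all matched genes) and 1 of 10 lower (9.91%). In armadillo 5 of 8 were higher than in platypus (36.1%) and 1 of 8, EFNB2, lower (11.0%).

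Genes that carry the signal inside the cell were matched for 16 of 40 list members between dog and armadillo, with 0 called higher in dog (12.6% of all matched genes) and 6 in armadillo (13.3%). MAPK3, the kinase ERK1, had 7034 reads or 532 CPM in armadillo, 169 or 75.3 CPM in platypus and 75 or 5.50 CPM in dog. AKT2, a survival kinase, stood at 52.1 CPM in dog and 148 in armadillo and was listed at 0 in platypus. YES1, a kinase of the SRC family, stood at 58.9 CPM in armadillo and was likewise listed at 0 in platypus, as was PLCG2, a phospholipase C, which was 6.33-fold (4.01 to 10.4) higher in armadillo than in dog. NCK1, an adaptor protein, did not separate dog from armadillo at 57.9 and 57.3 CPM (ratio 1.01, 0.914 to 1.12) and stood at 3.12 CPM in platypus. SH2D2A, an adaptor that binds KDR, was listed at 0 in dog and platypus. Against platypus 12 of 24 matched genes were higher in armadillo (36.1% of all matched genes) and 1 of 24, RAC1, was lower (11.0%), and 5 of 15 were higher in dog (32.0%) and 2 of 15 (MAPK3 and CDC42) lower (9.91%). The median log2 difference of the list was -1.0 for dog over armadillo, 0.76 for dog over platypus and 2.02 for armadillo over platypus, beside 0.00, 0.61 and 1.06 over all matched genes. NOS3, the endothelial nitric oxide synthase downstream of KDR, stood at 504 CPM in armadillo and 2.67 in platypus.

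The angiopoietin system, which stabilises vessels through the receptor TEK, showed the same order as FLT1 and KDR in armadillo and platypus. All 3 matched genes were called higher in armadillo (36.1% of all matched genes): TEK had 5690 reads (430 CPM) and ANGPT1 442 reads (33.4 CPM), both listed at 0 in platypus, and ANGPT2, the ligand that loosens vessels, had 5857 reads (443 CPM) against 4. In dog the related receptor TIE1 stood at 122 CPM (1665 reads), with 1 read in platypus. Of the NOTCH genes of sprouting vessels 0 of 4 were called higher in dog than in armadillo (12.6% of all matched genes) and 1 of 4, JAG1, in armadillo (13.3%). Against platypus 4 of 8 were higher in dog (32.0%) and 0 of 8 lower (9.91%), and 4 of 5 were higher in armadillo (36.1%) and 0 of 5 lower (11.0%). DLL4, the NOTCH ligand of tip cells that VEGFA induces, was close in dog and armadillo at 20.5 and 15.7 CPM (ratio 1.30, 1.08 to 1.56) and had 2 reads in platypus. NOTCH1 stood at 94.2 (dog), 194 (armadillo) and 2.23 (platypus) CPM. JAG1, another NOTCH ligand, was 4.49-fold (4.09 to 4.92) higher in armadillo than in dog and 9.54-fold (7.08 to 13.2) higher than in platypus. The NOTCH targets HEY1 (12 reads in armadillo) and NRARP (47 reads in dog) were listed at 0 in platypus.

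Class 3 semaphorins compete with VEGF ligands for neuropilins, and 0 of 8 matched genes of their list were called higher in dog than in armadillo (12.6% of all matched genes) and 3 of 8 higher in armadillo (13.3%). Against platypus 2 of 5 were higher in dog (32.0%) and 1 of 5 lower (9.91%), and 3 of 5 were higher in armadillo (36.1%) and 0 of 5 lower (11.0%). SEMA3F, the ligand of NRP2, had 8056 reads (609 CPM) in armadillo and 356 (26.1 CPM) in dog and was listed at 0 in platypus. SEMA3A, the ligand of NRP1, had 2184 reads (165 CPM) in armadillo, 2 in dog, and was listed at 0 in platypus. SEMA3E, which binds PLXND1 directly, stood at 48.0, 97.4 and 0.891 CPM in dog, armadillo and platypus. SEMA3D was the 1 list gene called higher in platypus than in dog, with 37 reads against 9.

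**Figure D4:**
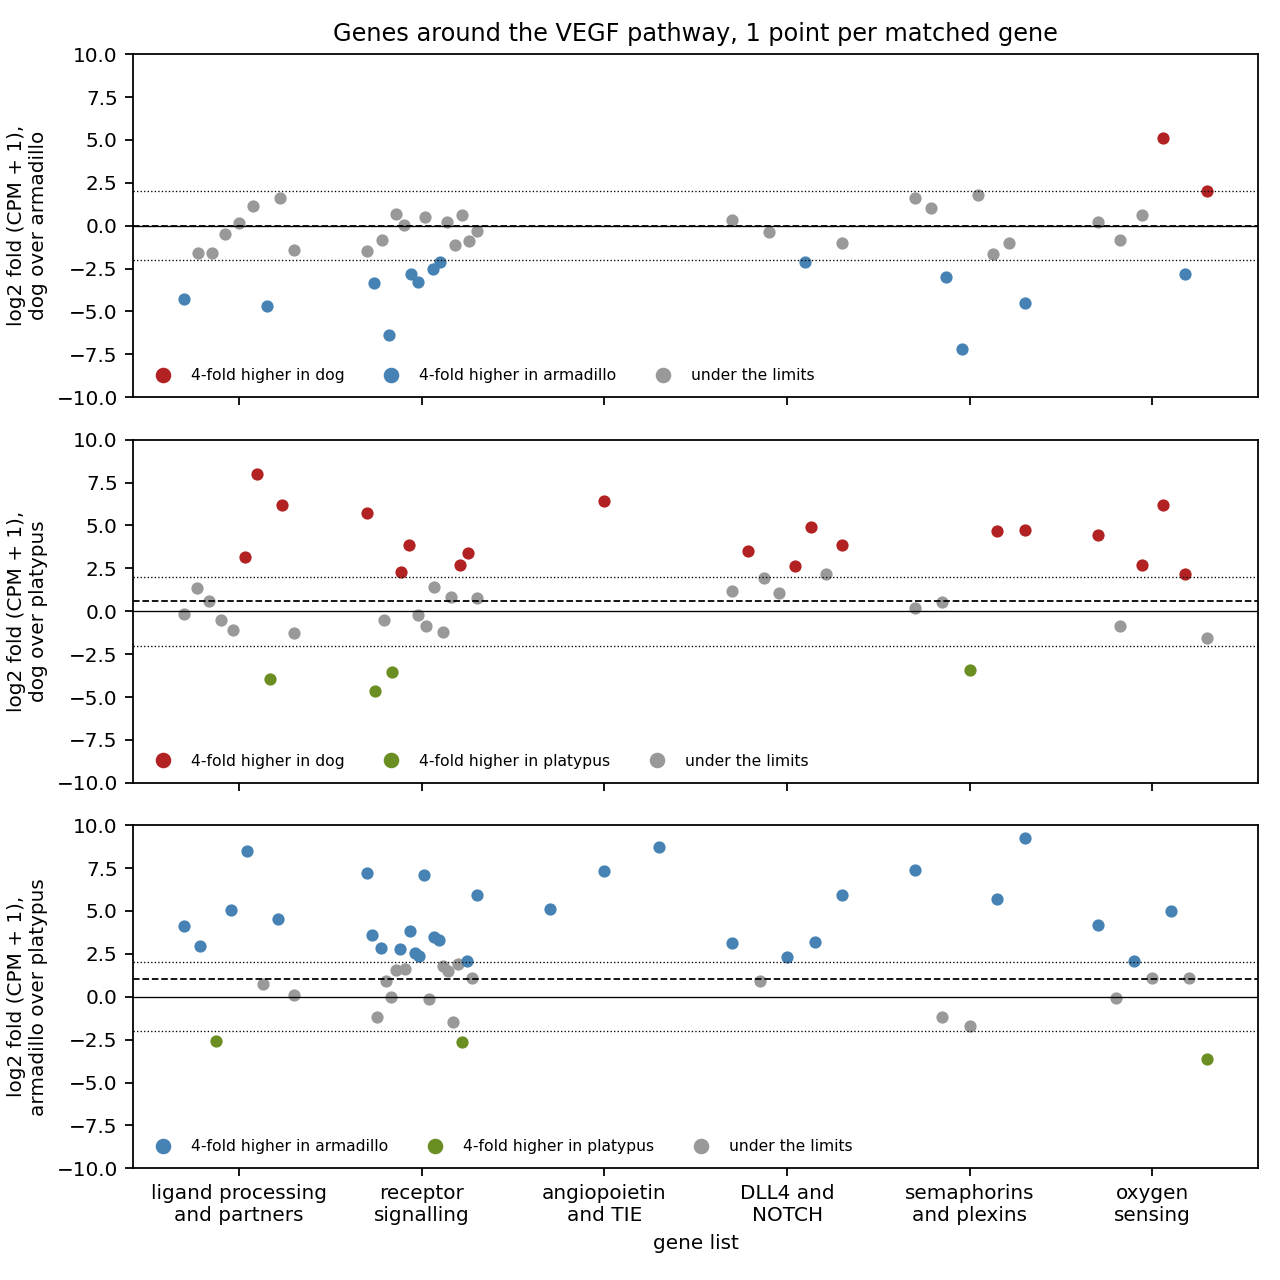
Log2 folds on the CPM + 1 scale of genes in 6 lists around the VEGF pathway, 1 point per matched gene, for dog over armadillo, dog over platypus and armadillo over platypus; colour marks genes called 4-fold higher in a library, dotted lines 4-fold and the dashed line the median of all matched genes. All 3 angiopoietin and TIE genes lie above 4-fold for armadillo over platypus, and 0 genes are called higher in dog than in armadillo outside the oxygen-sensing list.

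Regulators of VEGFA by oxygen were mixed. EPAS1, an oxygen-regulated transcription factor of endothelium, stood at 173 (dog), 1237 (armadillo) and 37.9 (platypus) CPM, and its partner ARNT at 87.2, 75.0 and 3.12. EGLN3, a hydroxylase that marks these factors for destruction and is itself induced by low oxygen, was 42.4-fold (32.3 to 56.8) higher in dog than in armadillo and 127-fold (43.5 to 617) higher than in platypus, with 2318, 53 and 3 reads in these libraries. EGLN2, a related hydroxylase, stood at 97.5 (dog), 63.9 (armadillo) and 14.3 (platypus) CPM. HIF1AN, an inhibitor of the same factors, was highest in platypus at 173 CPM, against 58.4 in dog and 13.4 in armadillo, and was called higher in dog than in armadillo (4.36-fold, 3.70 to 5.16). In all 2 of 6 matched genes were higher in dog than in armadillo (12.6% of all matched genes) and 1 of 6 in armadillo (13.3%). Against platypus 4 of 6 were higher in dog (32.0%) and 0 of 6 lower (9.91%), and 3 of 7 were higher in armadillo (36.1%) and 1 of 7 lower (11.0%).

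The genes nearest in pattern were sought over the 3 libraries among 5609 matched genes, as the smallest root mean square difference of log2(CPM + 1) values centred on their mean. For NRP1 these were IL1R1 (0.07; 2.64 CPM, 121 CPM and 0.891 CPM in dog, armadillo and platypus), SPTB (0.11) and ALDH1A1 (0.12), and IL1R1 was the 1 gene within 0.1. For NRP2 they were RFC1 (0.05), RBL2 (0.07) and STK36 (0.07), with 13 genes within 0.1. For VEGFC they were MYO19 (0.04), C6ORF57 (0.05) and POLH (0.07), and for PGF TMEM170A (0.03), IVNS1ABP (0.03) and SLC22A5 (0.04). SPTB, TMEM170A, RBL2 and STK36 were listed at 0 in platypus, and RFC1 had 1 read there, against 12 for NRP2. The pseudocount of 1 CPM narrows differences at such counts. With 3 libraries many genes can share a pattern, and the measure is a description only.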

How the data were processed

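Messenger RNA was sequenced from pregnant endometrium of 3 species, 1 library each. Column extraction with DNase treatment and Illumina library preparation are given in the labels' protocols. The submitters' processing notes name Bowtie. The sources used here do not give its version, the genome builds or the annotation. For dog, the file deposited by the authors holds, per the file headers, estimated counts by gene, of which 516 were not whole and were rounded. The dog table also holds deposited scores (mapped bases, not used here, and an abundance with no unit in the header). Dividing dog reads by the latter gave whole multiples of 1 step, within 0.1 of a base, for 100% of 5644 genes over 500 reads, so it was used as a per-length scale. The other 2 files deposited by the authors hold raw read counts by gene. The total lines were left out.

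Genes were matched by upper-case symbols that occur once in a table, and dog accessions were turned into symbols with the RefSeq gene table of UU_Cfam_GSD_1.0 by exact match. Counts were scaled to the sum over listed genes (CPM), with a pseudocount of 1 CPM for log2 folds. Poisson, binomial and conditional 95% intervals were computed in Python 3.11.15 with scipy 1.17.1. PCR copies of a molecule cannot be told apart here, so these intervals cover counting error only. The call rule and the interval code were tested on simulated data. No length correction was applied to the counts, and folds between species contain differences in gene models. Count-based tests across replicates were not possible with 1 library per species.

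The members and lists were chosen with earlier results of these data known. From each list the text names the genes listed at 0 or called in more than 1 pair, at most 4 per direction by size of fold, and the 3 genes nearest in pattern to each member above 0 in all libraries. The direction is the library that is higher in the gene's largest fold. CCBE1, NOS3, ANGPT2, TIE1, EFNB2, RAC1, CDC42, SEMA3D and VHL and the single cell type markers fall outside this rule and were named after their values were seen. A gene that the rule selects is not reported here.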

Additional observations from a re-analysis of the deposited data

How the results depend on the processing

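No paired analysis was possible because each species has 1 library. Median-of-ratios scaling moved the median log2 difference of all matched genes by -0.21 for dog over armadillo, -0.36 for dog over platypus and -0.18 for armadillo over platypus. Members called higher in dog than in armadillo numbered 0 with median-of-ratios or upper-quartile scaling (9.77% and 9.46% of all matched genes), 2 with totals over genes matched in all 3 tables (14.2%) and 2 with a 2-fold limit (26.7%), instead of 1 (12.6%). PGF had a log2 fold of 1.83 and 1.79 under the first 2 scalings instead of 2.13. Members higher in dog than in platypus numbered 2 of 4, instead of 4 of 6, when both libraries had to reach 2 CPM (25.9% of all matched genes that did, instead of 32.0%), which removes PGF and VEGFB. Totals over genes matched in all 3 tables multiplied CPM by 2.06 to 2.17, with the pseudocount and the 5 CPM limit unchanged. That setting thus changed more than the scaling between libraries. The cause of the scaling changes was otherwise not tested. The calls of FLT1, KDR, NRP1 and NRP2 for armadillo over platypus and of NRP1 for armadillo over dog held under all 3 alternative scalings. With 2 CPM in both libraries, members higher in armadillo than in platypus numbered 3 of 4 (FLT1, NRP1 and NRP2), instead of 4 of 6. The share over all matched genes was then 22.9% instead of 36.1%. KDR, listed at 0 in platypus, was removed.

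Receptor ratios per endothelial read depended on the markers. Without PLVAP, and with ROBO4 and MMRN2 alone (both chosen after seeing the data), the ratio of armadillo to platypus was 0.332 and 0.778 for FLT1, 0.223 and 0.522 for NRP1 and 0.206 and 0.483 for NRP2, and that of dog to armadillo was 0.306 and 0.154 for NRP1, which reversed it, and 8.42 and 4.25 for NRP2. With CDH5 alone the ratio of dog to platypus was 0.371 for FLT4 and 39.8 (20.5 to 83.1) for NRP2, which was 1.02 with the 5 markers. For NRP1 it was 1.56 (0.728 to 3.73), an interval that includes 1, instead of 0.0399 (0.0116 to 0.128) with the 5 markers. PECAM1 was not analysed here.

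Over all matched genes upper-quartile scaling put 37.3% of the dog and armadillo calls higher in dog instead of 48.6%. With 2 CPM in both libraries fewer genes were tested (6669, 4526 and 4237 instead of 8908, 9073 and 7296 for the pairs dog and armadillo, dog and platypus, and armadillo and platypus). The calls were then 649 (9.73%) instead of 1183 (13.3%) for armadillo over dog, 1174 (25.9%) instead of 2902 (32.0%) for dog over platypus, 505 (11.2%) instead of 899 (9.91%) for platypus over dog and 972 (22.9%) instead of 2633 (36.1%) for armadillo over platypus. Platypus counts of 1 to 22 reads limit every value given for VEGFA, VEGFC, PGF, FLT1, NRP1 and NRP2 there.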

Other observations

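Some vessel genes appear in the dog table only under UniProt entry names, as VEGFA does, and were outside the comparisons above. NOS3 read in this way had 120 reads or 8.81 CPM in dog (95% interval 7.30 to 10.5), 57.2-fold (47.7 to 69.1) below armadillo. VWF had 1049 reads or 77.0 CPM, 17.7-fold (16.6 to 18.9) below armadillo, and CD34 435 reads or 31.9 CPM, 12.1-fold (11.0 to 13.4) below. All 3 thus lay on the same side as NRP1. HEY1 and RAC1, read in the same way, were higher in dog than in armadillo. HEY1 had 28 dog reads, a ratio of 2.26 (1.11 to 4.89). RAC1 had 3661 dog reads, a ratio of 2.36 (2.22 to 2.51), and was 2.64-fold (2.49 to 2.80) below platypus. VHL, which targets oxygen-regulated factors for destruction, was higher in dog, at 446 reads or 32.7 CPM against 16 reads in armadillo, a ratio of 27.0 (16.5 to 47.7). PDPN had 1596 reads or 117 CPM in dog and 34 reads in armadillo, a ratio of 45.5 (32.5 to 66.0), whereas LYVE1 had 12 reads in dog and 1994 in armadillo.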
